A study of Mus musculus with 419 samples.

Results

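Cd3d, Cd3e, Cd3g, Cd4, Cd8a, Cd8b1, Ccl5, Nkg7, Gzma and Ncr1 are genes of T cells and natural killer (NK) cells, and their messenger RNA was followed across the organs of mice kept energy-sufficient or energy-deficient. They were picked by gene symbol, and these 10 genes are 10 of 55487 in the count table. Their levels are given in CPM, the usual library-scaled count: the reads of the gene relative to the nuclear-gene reads of the library, after scaling by edgeR's TMM factors within the tissue.

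T cells recognise antigen through a receptor that signals only together with the CD3 chains. Cd3d, Cd3e and Cd3g encode the delta, epsilon and gamma chains of that complex. Cd4 encodes the coreceptor of helper and regulatory T cells, and some dendritic cells and macrophages of the mouse carry it too. Cd8a and Cd8b1 encode the alpha and beta chains of the coreceptor of killer T cells, and Cd8a is also found on a subset of dendritic cells. Killer T cells and NK cells share a granule programme. Gzma encodes granzyme A, a protease of those granules, Nkg7 encodes a membrane protein of the granules, and Ccl5 encodes a chemokine that activated T cells and NK cells release. Ncr1 encodes NKp46, an activating receptor of NK cells and related innate lymphoid cells. Spleen is a main store of circulating lymphocytes, and the lung holds many NK and T cells in its vessels and walls.

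The study models relative energy deficiency in sport, a condition in which energy intake does not cover what the body spends. Bulk RNA-seq libraries (419 of them) were made from 19 tissues of female and male CBA/CaJ mice, an inbred strain for which the labels name no altered allele. Each tissue and sex holds Control (energy-sufficient) and Deficient (energy-deficient) mice collected at zeitgeber time ZT05 or ZT17, where zeitgeber time counts hours from lights on. Of the 140 groups of tissue, sex, treatment and time, 139 have 3 libraries and 1 has 2, so an arm of 1 sex and 1 treatment in a tissue usually has 6 libraries. How the deficit was produced and the age of the mice are not given in the sources used here. The libraries of a group carry different animal numbers, and 1 set of females gave all 18 female tissues, so values of different tissues are not independent. The samples are whole tissues, in which fewer cells of a type and less RNA per cell cannot be told apart.

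On the GRCm38 build (GENCODE M21 annotation) the CD3 genes are neighbours on chromosome 9. Cd3g (ENSMUSG00000002033) spans 44969572 to 44980431 on the minus strand, Cd3d (ENSMUSG00000032094) spans 44981786 to 44987339 on the plus strand, and Cd3e (ENSMUSG00000032093) spans 44998740 to 45009627 on the minus strand. The starts of Cd3g and Cd3d face away from each other across 1354 bases. Cd3e overlaps the antisense gene Gm48719 and the same-strand model Gm48720, and since the strand setting of the counting is not given in the sources used here, reads of those genes may be included in its counts. Cd8b1 (chromosome 6, 71322788 to 71337494, plus strand) lies 35932 bases before Cd8a (71373427 to 71379173, plus strand), and Cd4 is on the same chromosome at 124864692 to 124888221 (minus strand). Ncr1 (4337724 to 4345164) and Nkg7 (43437073 to 43438249) are both on the plus strand of chromosome 7, Ccl5 is on the minus strand of chromosome 11 (83525778 to 83530518), and Gzma is on the minus strand of chromosome 13 (113093825 to 113100981).

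The upstream sequences of a pair of CD3 genes and a pair of cytotoxic genes are shown because the fitted changes of these pairs had opposite signs in female spleen, described further on. Each is the 250 bases before the RefSeq start site on GRCm38.p6, read 5′ to 3′ on the strand of the gene, with motif matches in capitals.
Cd3d, chr9:44981536-44981785, plus strand: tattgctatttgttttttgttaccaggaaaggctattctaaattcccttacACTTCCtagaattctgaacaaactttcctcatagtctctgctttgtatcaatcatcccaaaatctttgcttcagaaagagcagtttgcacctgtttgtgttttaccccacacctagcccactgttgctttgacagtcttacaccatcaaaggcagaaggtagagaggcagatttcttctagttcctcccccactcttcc
Cd3e, chr9:45009612-45009861, minus strand: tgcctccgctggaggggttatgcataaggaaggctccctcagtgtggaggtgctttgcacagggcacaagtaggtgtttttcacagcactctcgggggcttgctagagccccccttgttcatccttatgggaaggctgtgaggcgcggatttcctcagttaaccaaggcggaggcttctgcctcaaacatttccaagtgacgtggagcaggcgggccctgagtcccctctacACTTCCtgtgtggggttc
Gzma, chr13:113100982-113101231, minus strand: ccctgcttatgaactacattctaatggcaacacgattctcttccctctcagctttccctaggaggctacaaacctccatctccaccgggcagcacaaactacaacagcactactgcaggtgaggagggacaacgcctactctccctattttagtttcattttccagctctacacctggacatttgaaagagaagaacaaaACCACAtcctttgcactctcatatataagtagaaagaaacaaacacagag
Ncr1, chr7:4337465-4337714, plus strand: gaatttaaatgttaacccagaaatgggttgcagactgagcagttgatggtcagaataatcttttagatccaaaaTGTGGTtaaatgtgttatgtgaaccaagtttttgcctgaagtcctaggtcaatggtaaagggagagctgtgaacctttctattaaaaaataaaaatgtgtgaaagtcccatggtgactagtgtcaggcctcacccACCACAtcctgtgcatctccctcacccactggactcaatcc

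The capitals in the CD3 sequences are ACTTCC, the reverse complement of GGAAGT, a core sequence of ETS factors. The ETS match lies 199 bases before the start of Cd3d and 18 bases before that of Cd3e. The capitals in the cytotoxic sequences are TGTGGT or its reverse complement ACCACA, a core sequence of RUNX factors, which lies 50 bases before the start of Gzma and 176 and 41 bases before that of Ncr1. RefSeq sequences were matched for 7 of the 10 genes (Cd4, Cd8b1 and Ccl5 were not matched). The ETS hexamer was found in Cd3d and Cd3e of those 7 and in 19.8% of 32536 promoters of the same length, and the RUNX hexamer in Nkg7, Gzma and Ncr1 and in 14.0% of all. Neither CAGCTG, a core of E proteins that 13.1% of all promoters hold, nor CACGTG, the E-box of the circadian clock that 6.04% hold, was found in the 7 sequences. Cd3g and Cd8a, whose sequences held 0 matches and are not shown, also had positive fitted changes in female spleen. The motifs were searched on both strands, share no bases with each other where they matched, and a match is only a description of letters.

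Library totals ran from 5777450 to 53598697 counts, and the libraries of males of low animal number (31 to 62) stand apart. Mitochondrially encoded and ribosomal-RNA-like genes took 1.05% to 95.3% of their counts (median 55.3%), against 1.76% to 44.2% (median 12.1%) in females and 2.79% to 27.7% in males of high number (73 to 94). The male libraries of lung are all of the low-numbered set, as are 11 of the 12 of spleen. They also differ in the balance of these genes. The log2 ratio of Gzma to Cd3d was 0.49 to 2.96 in female lung and -4.02 to -0.30 in male lung. In spleen it was -1.91 to 0.22 in females, -11.67 to -4.11 in the low-numbered males and -0.88 in the 1 high-numbered male. Female values are therefore given first, and each male result with its cohort of animal numbers.

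**Figure D1:**
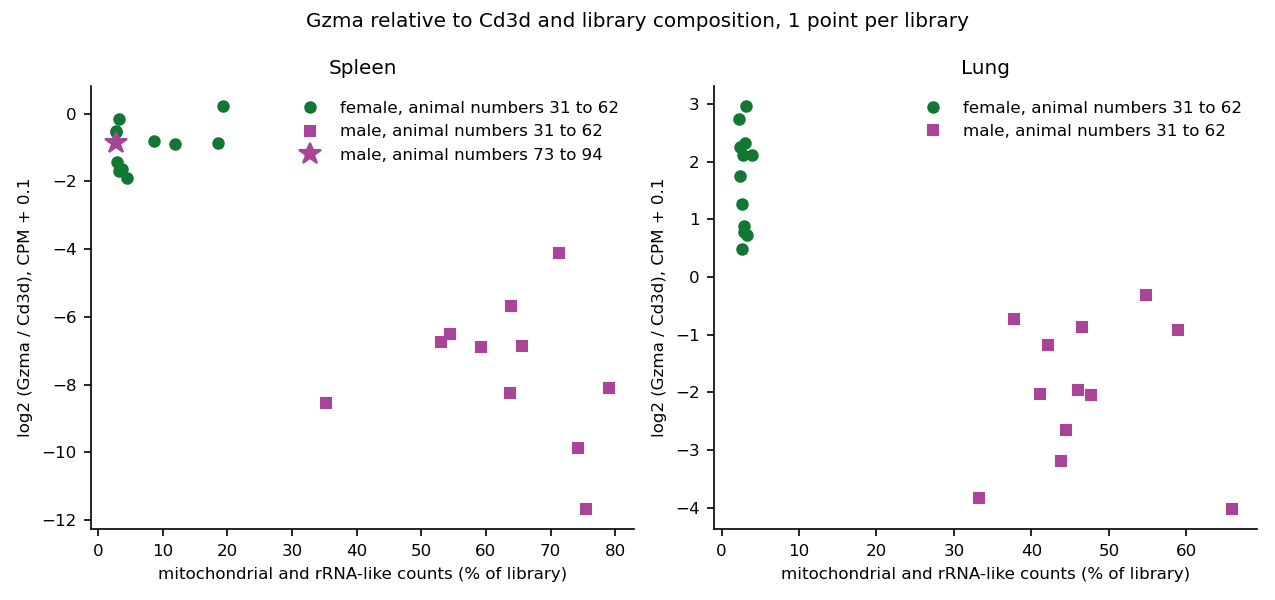
Share of mitochondrially encoded and ribosomal-RNA-like counts (x axis, percent) against the log2 ratio of Gzma to Cd3d (y axis, CPM + 0.1) in each lung and spleen library, by sex and animal number. Each point is 1 library. Males numbered 31 to 62 lie at 33.2% to 65.9% (lung) and 35.2% to 79.1% (spleen) on the x axis and below every female library of the same tissue on the y axis, and the 1 male spleen numbered 73 to 94 lies among the females.

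All of these genes stood highest in spleen and next in lung in Control females (means of 6 libraries). In spleen the CD3 genes averaged 87.8 ± 20.6 CPM (SD, n = 6) for Cd3d, 83.0 ± 16 for Cd3e and 132 ± 19.2 for Cd3g. The coreceptor genes averaged 172 ± 15.5 CPM for Cd4, 98.5 ± 13.8 for Cd8a and 66.6 ± 6.08 for Cd8b1. The cytotoxic genes averaged 67.4 ± 25.6 CPM for Gzma, 36.1 ± 6.40 for Ccl5, 35.0 ± 7.16 for Nkg7 and 31.5 ± 6.19 for Ncr1. In lung the same libraries' means were 7.85 ± 3.97 CPM for Cd3d, 8.59 ± 3.77 for Cd3e, 10.8 ± 4.70 for Cd3g, 12.0 ± 5.02 for Cd4, 5.45 ± 3.29 for Cd8a and 3.55 ± 2.47 for Cd8b1. Lung means of the cytotoxic genes were 37.6 ± 17.8 CPM for Gzma, 14.7 ± 6.45 for Ccl5, 9.57 ± 4.46 for Nkg7 and 14.0 ± 6.79 for Ncr1. The T cell genes were thus 9.66-fold (Cd3e) to 18.7-fold (Cd8b1) higher in spleen than in lung, and the 4 cytotoxic genes 1.79-fold (Gzma) to 3.65-fold (Nkg7) higher. Gzma was the gene whose spleen and lung values overlapped between libraries.

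Compared per kilobase of exon, Gzma was the highest of the 10 genes in both organs, at a mean level of 67.0 CPM per kb in spleen and 37.4 in lung. In spleen Cd3d (48.4 CPM per kb), Cd8b1 (44.9), Cd4 (42.6) and Cd3g (40.3) came next, and Ncr1 (20.5) and Cd3e (20.3) were lowest. In lung the cytotoxic genes Ccl5 (15.3), Nkg7 (10.5) and Ncr1 (9.07) came before every T cell gene, of which Cd3d (4.32) was the highest and Cd8a (1.5) the lowest. The cytotoxic genes therefore ranked above the CD3 and coreceptor genes in lung and among them in spleen.

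Beyond these organs the levels were low in Control females. The third tissue was uterus for Cd3g (1.71 CPM), Cd4 (4.37), Ccl5 (1.57), Nkg7 (2.63), Gzma (3.18) and Ncr1 (4.04), and heart for Cd3d (0.955), Cd3e (2.07), Cd8a (0.986) and Cd8b1 (0.577). Lung and uterus libraries overlapped for Cd4 and Ncr1. In soleus, a slow leg muscle, the 12 female libraries held 3 counts of Cd8b1 in all. All 10 genes passed the filter on low counts in heart, lung and spleen, 8 did in adrenal gland and uterus, 7 in kidney and ovary, 5 in pituitary, and 4 in liver and testis. At most 2 passed in quadriceps, gastrocnemius, brown adipose tissue and the tendons, and 0 in extensor digitorum longus, tibialis anterior and soleus muscle. By gene, Cd4 passed in 16 tissues, Ccl5 in 12, Cd3g and Nkg7 in 9, and Cd8a in 3.

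Testis, an organ of the low-numbered males, was the exception for 1 chain of the CD3 complex. Cd3d read 24.9, 22.4, 18.3, 24.8, 20.9 and 17.6 CPM in Control and 23.6, 21.3, 16.1, 20.6, 19.7 and 16 CPM in Deficient testis, so every testis library lay above the Control female lungs. The other chains were near 0 in the same libraries, Cd3e at 0.201 to 0.607 CPM and Cd3g at 0 to 0.575 CPM, and Cd8a averaged 0.0101 CPM in the Control ones. Cd8b1 read 0.983 to 2.30 CPM in the testis libraries, so the CD8 chains were unlike each other there too. Per kilobase of exon Control testis held 11.8 CPM of Cd3d and 0.0987 of Cd3e. The treatment was not called for Cd3d in testis (-0.14 ± 0.11 log2, adjusted p = 0.621 by edgeR's quasi-likelihood test). The annotation gives no other gene that overlaps Cd3d.

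**Figure D2:**
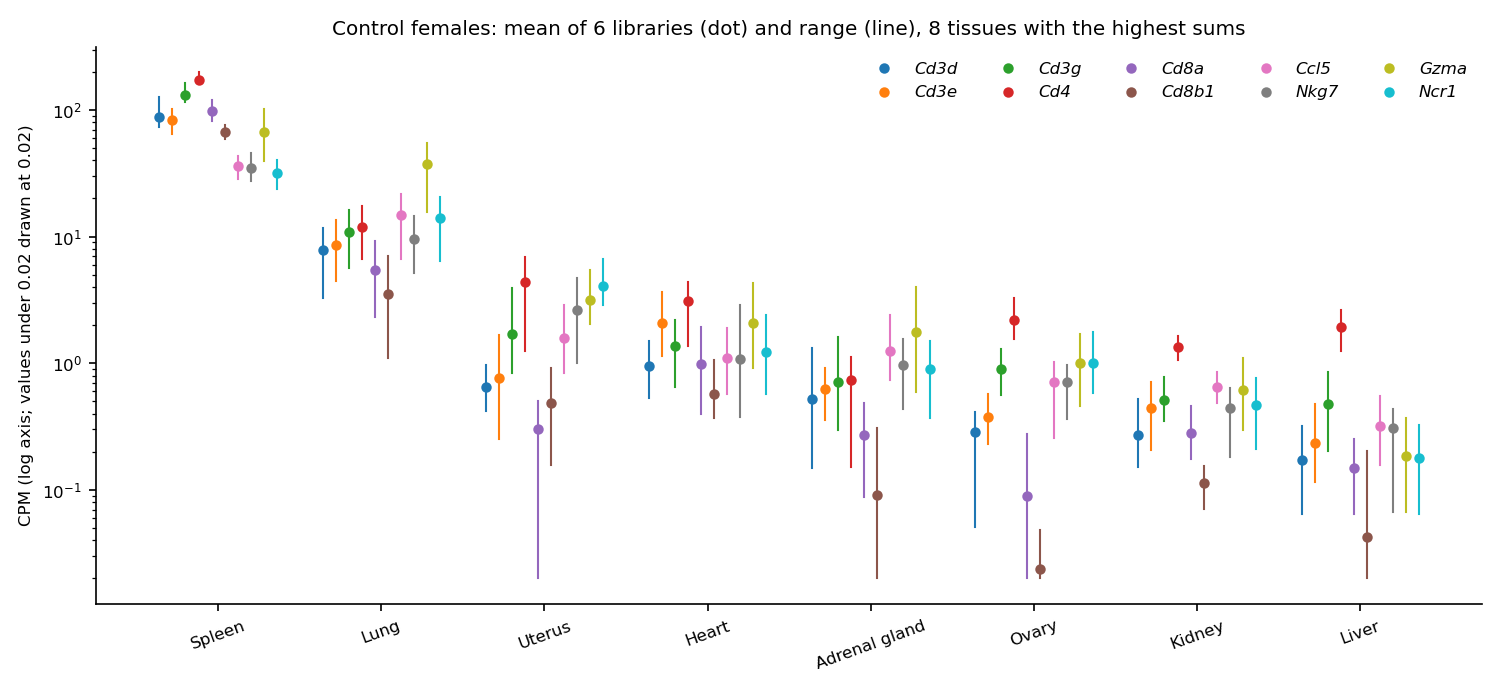
Level of each gene in Control females (y axis, CPM on a log scale, values under 0.02 drawn at 0.02) in the 8 tissues with the highest sums, with dots for the mean of 6 libraries and lines for their range. Spleen and lung lead for all 10 genes, and no mean in the other tissues exceeds the 4.37 CPM of Cd4 in uterus.

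Among the 5 genes whose Control levels ran most like those of Cd3e over 35 tissue-by-sex means were Slamf6 (Pearson r of log2 CPM + 1 of 0.992), Ms4a4b (0.988), Cd69 (0.986) and Rasal3 (0.985). Those most like Nkg7 were Gimap3 (0.982), Klrd1 (0.979), Prf1 (0.979), Ltb (0.979) and H2-Ob (0.979). Klrd1 encodes an NK cell receptor chain and Prf1 the pore-forming perforin. Ltb and H2-Ob ran as closely with Nkg7, at higher female spleen means (340 and 760 CPM) than Klrd1 (32.0) and Prf1 (23.3). The list is therefore not read as a mark of NK cells. These correlations describe tissue means that share mice, and each gene named here had a higher mean in spleen than in lung of Control females.

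In the lungs of Control females every one of the 10 genes was lower at ZT17 than at ZT05. Cd8a read 7.61, 8.35 and 9.27 CPM at ZT05 and 2.34, 2.45 and 2.69 at ZT17. Cd8b1 read 4.74, 5.38 and 6.98 CPM at ZT05 and 1.35, 1.1 and 1.76 at ZT17. Both chains of the CD8 coreceptor were thus low in all 3 night libraries, with no overlap. Cd4 read 15.2, 17.4 and 16.9 CPM at ZT05 and 8.68, 6.66 and 7.15 at ZT17. Cd3e read 10.2, 13.5 and 11.6 CPM at ZT05 and 7.06, 4.46 and 4.66 at ZT17. Cd3d (11 to 11.8 CPM against 3.26 to 6.46) and Cd3g (13.0 to 16.1 against 5.64 to 7.41) were as clearly apart. Of the cytotoxic genes, Gzma read 55.3, 51.6 and 53.6 CPM at ZT05 and 15.7, 23.4 and 26.1 at ZT17. Ncr1 read 20.3, 20.4 and 19.6 CPM at ZT05 and 6.42, 8.01 and 9.06 at ZT17. Nkg7 (12.3 to 14.5 CPM against 5.20 to 6.06) and Ccl5 (17.4 to 21.8 against 6.62 to 12.1) were also lower at ZT17 without overlap. Lower values without overlap were seen for 15.2% of all genes tested in lung.

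Within each tissue all libraries were fitted together with edgeR's quasi-likelihood test and p-values were adjusted by Benjamini-Hochberg across every gene that entered the tissue's fit, with 0.05 as the threshold. In that fit, which averages the sexes, all 10 genes fell from ZT05 to ZT17 in Control lung, by log2 values from -1.08 ± 0.31 (SE; Ncr1) to -2.95 ± 0.50 (Cd8b1). In the same contrast 7.04% of all lung genes were called lower. Ncr1 lost its call when any of 6 of the 24 lung libraries was left out (female Control ZT05 replicates 1 and 2 and ZT17 replicates 1 and 2, male Control ZT05 replicate 1 and ZT17 replicate 1; adjusted p up to 0.102), and the other 9 kept theirs in all 24 such fits. Fitted on the 12 female libraries alone, all 10 fell again, against 4.05% of all genes called lower and 2.23% called higher. The female changes by edgeR's quasi-likelihood test were -2.03 ± 0.37 for Cd8b1 (adjusted p = 0.0098), -1.76 ± 0.27 for Cd8a (adjusted p = 0.00462) and -1.14 ± 0.19 for Cd4 (adjusted p = 0.00668). The changes of the other 7 were -1.13 (Cd3e) to -1.37 (Ncr1 and Cd3d), with adjusted p-values of 0.0102 to 0.0349 by the same test. Between 2 and 10 of these calls stood with 1 female library left out. Cd4 and Cd8a were called in all 12 such fits, Nkg7 and Cd8b1 in 11, and the fewest calls came without Control ZT17 replicate 2.

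Other lymphocyte genes of Control female lung fell with them. Of 17 other T cell receptor and signalling genes, 14 fell and 0 rose, among them Ubash3a (-1.58), Cd6 (-1.47) and Skap1 (-1.45). Of 20 other cytotoxic and NK cell genes tested, 12 fell and 0 rose, led by the transcription factor Eomes (-1.63), Ms4a4b (-1.54), Klrd1 (-1.47) and the kinase Txk (-1.46). Of 13 genes of naive, helper and regulatory T cells, 3 fell (the homing receptor Ccr7 -1.53, the interleukin 7 receptor Il7r -1.30, Lef1 -1.24). The median log2 change was -1.31 for the 10 genes, -1.20 for the receptor and signalling genes and -1.22 for the cytotoxic genes, with 0.01 over all genes tested. B cell markers moved too, 10 of 12 lower (Fcrla -2.10, Pax5 -1.72, Fcer2a -1.66), and their summed level was 255 to 332 CPM at ZT05 and 120 to 121 at ZT17. The macrophage and monocyte sum was 8504 to 9216 CPM at ZT05 and 8623 to 9766 at ZT17, with 1 marker higher and 1 lower of 13. Erythroid, neutrophil and proliferation markers gave 0 calls by edgeR. The part of other cell types in the change of the 10 genes was not tested.

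In Deficient female lung the values at ZT17 lay below those at ZT05 without overlap for 4 of the 10 genes (Cd3d, Cd3g, Cd4 and Ccl5), against 10.3% of all genes. Cd4 read 19.5, 22.3 and 20.2 CPM at ZT05 and 13.2, 12.0 and 7.49 at ZT17. Gzma read 17.4, 33.5 and 21.8 CPM at ZT05 and 12.8, 24.5 and 22.8 at ZT17, so its values overlapped. In the shared fit 0 of 82 gene-and-tissue pairs was called between the times in Deficient mice by edgeR (4 had an unadjusted p under 0.05, and DESeq2 called 0), against 0.793% of all genes over all tissues called higher and 0.76% lower, and 0.0844% of lung genes called lower. With females fitted alone Cd4 fell by 0.92 on the log2 scale (SE 0.19, adjusted p = 0.0352 by edgeR's quasi-likelihood test), where 0.602% of all genes were called lower, and it kept that call in 2 of 12 fits that left out a library. The remaining female changes were -0.27 (Gzma) to -1.02 (Cd3g).

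Whether the day-night change itself differed between Deficient and Control mice was tested as an interaction. In the shared fit 4 of 82 pairs passed, all in lung, where 2.86% of genes were called higher (0.954% over all tissues). These were Cd8a (2.82 ± 0.65 log2), Cd3d (1.78 ± 0.51), Nkg7 (1.69 ± 0.47) and Cd4 (1.63 ± 0.48). Cd8a was called in all 24 fits that left out 1 lung library and the other 3 in 3 to 6 of 24. In females alone 0 of the 10 lung genes was called by edgeR (4 had an unadjusted p under 0.05, and 0.461% of all genes were called higher), with differences from 0.16 ± 0.35 (Cd3g) to 1.24 ± 0.50 (Cd8b1).

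**Figure D3:**
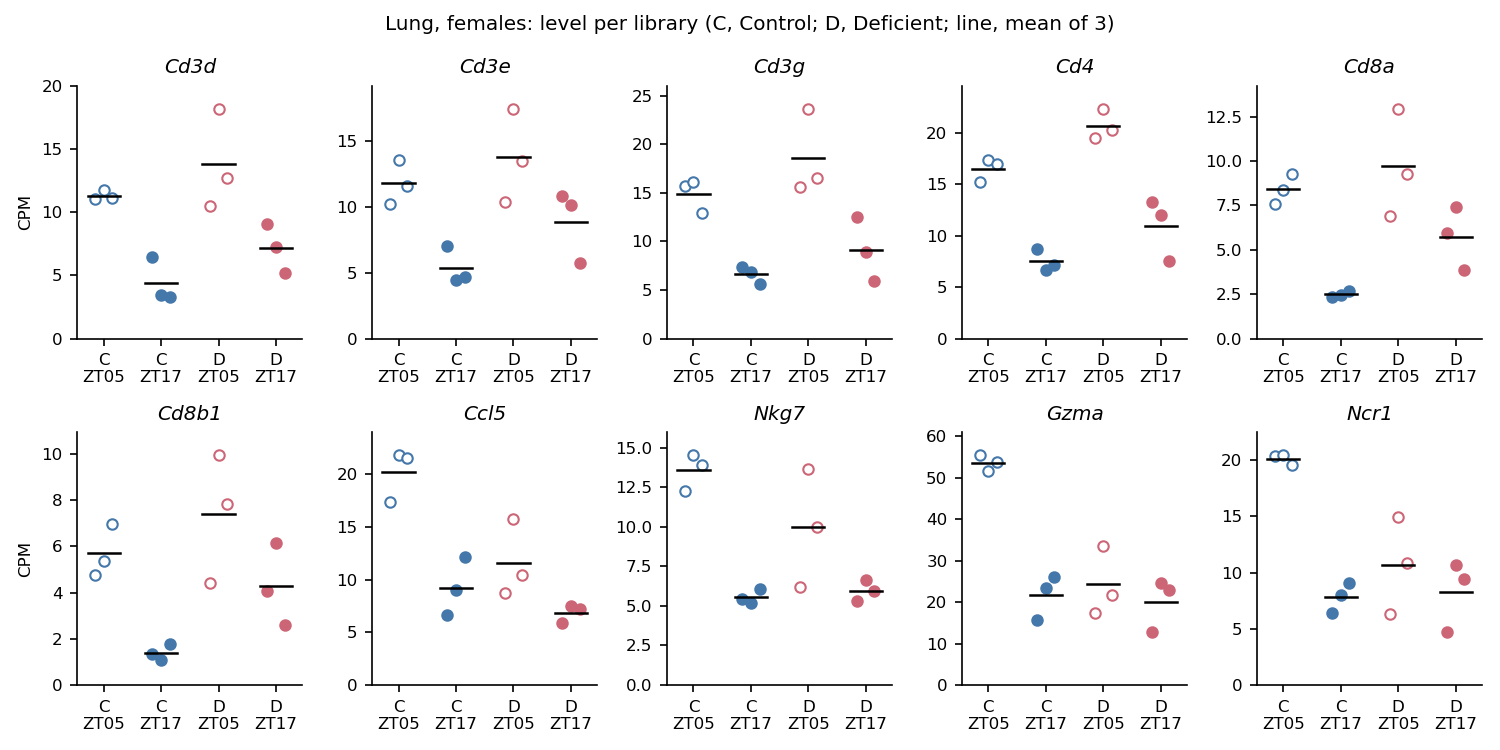
CPM of the 10 genes in the 12 female lung libraries, by treatment and time (each point 1 library, lines are means of 3). The 3 Control ZT17 libraries lie below the 3 Control ZT05 libraries for every gene, and Gzma and Ncr1 of the Deficient ZT05 libraries lie below those of Control ZT05.

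Comparing Deficient with Control female lung, 3 of the cytotoxic genes were lower at ZT05. Gzma (17.4 to 33.5 CPM), Ncr1 (6.33 to 14.9) and Ccl5 (8.70 to 15.7) of the Deficient libraries lay below all Control libraries at that time, which 14.2% of all genes did. Cd4 of the Deficient libraries lay above those of Control without overlap, as did 11% of all genes, which is about 1 gene in 10. At ZT17 Cd8a (3.84 to 7.40 CPM against 2.34 to 2.69) and Cd8b1 (2.59 to 6.16 against 1.1 to 1.76) lay above Control without overlap, as did 13% of all genes. Averaged over the times, 0 of the 10 genes was called in the shared fit by edgeR (0.0369% of all lung genes were called higher and 0.058% lower). With females fitted alone Cd8b1 rose (0.99 ± 0.25 log2, adjusted p = 0.038) and Cd8a rose (0.70 ± 0.18, adjusted p = 0.043) by the same test, against 3% of all genes called higher and 4.41% lower. The negative values of Gzma (-0.62 ± 0.20, adjusted p = 0.0719), Ccl5 (-0.61 ± 0.18, adjusted p = 0.0568) and Ncr1 (-0.41 ± 0.23, adjusted p = 0.276) did not pass. From 0 to 3 genes were called when 1 female library was left out, Cd8b1 in 3 of 12 such fits and Cd8a in 2.

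The wider lists gave few calls in that comparison. Of the other receptor and signalling genes 2 of 17 rose (Ubash3a 0.83, Trbc2 0.65), of the naive and helper genes 2 rose (Il7r 0.92, Ccr7 0.61), and of the cytotoxic genes 1 of 20 rose (Ms4a4b 0.50). B cell markers rose for 9 of 12, neutrophil markers for 3, and erythroid markers fell for 5 and rose for 1. The summed neutrophil level was 72.1 to 236 CPM in Control and 123 to 1035 CPM in Deficient female lung. The part of these cells in the values of the 10 genes was not tested.

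In female spleen Gzma and Ncr1 were lower in Deficient mice, while the CD3 and coreceptor genes were level or slightly higher. Gzma read 44.0, 51.8 and 39.8 CPM in the Control ZT05 libraries and 88.7, 79.1 and 101 in those of ZT17. In Deficient mice it read 27.4, 30.9 and 30.8 CPM at ZT05 and 30.6, 51.4 and 30.3 at ZT17. At each time the Deficient values of Gzma lay below those of Control, and 1 Deficient ZT17 library reached the Control ZT05 range. Ncr1 read 25.2, 31.1 and 23.7 CPM (ZT05) and 34.7, 34.2 and 40.1 CPM (ZT17) in Control, and 16.2, 20.2 and 22.8 CPM and 16.2, 23.7 and 19.2 CPM in Deficient mice. At ZT05 Gzma and Ncr1 of the Deficient libraries were lower without overlap, as were 13.2% of all genes. Ncr1 was the gene of the 10 whose Control and Deficient values did not overlap over both times, which 1.75% of all spleen genes did in the lower direction. The arms nearly touched, at 23.72 CPM in Control ZT05 replicate 3 and 23.69 CPM in Deficient ZT17 replicate 2. Ccl5 read 28.6 to 43.6 CPM in Control and 26.7 to 33.0 in Deficient libraries, and Nkg7 27.6 to 45.5 against 24.6 to 37.1, with overlap. At ZT17 alone all 4 cytotoxic genes lay lower in Deficient libraries without overlap, against 12.3% of all genes.

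The CD3 and coreceptor genes of female spleen moved less. Cd4 read 160 to 198 CPM in Control and 178 to 245 in Deficient libraries, with overlap. Cd3e read 65.1 to 102 CPM and 88.4 to 129, and Cd8b1 58.8 to 75.9 and 68.5 to 92.6. At ZT05, 6 genes (Cd3d, Cd3e, Cd4, Cd8a, Cd8b1 and Nkg7) lay above Control without overlap, against 14.8% of all genes, and at ZT17 Cd4 alone did, against 12%.

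In the shared fit of both sexes 0 of the 10 spleen genes was called for the female response by edgeR (1 had an unadjusted p under 0.05, and DESeq2 called 0), where 0.0388% of all genes were called higher and 1.19% lower. Gzma stood at -0.93 ± 0.43 (adjusted p = 0.678 by the quasi-likelihood test) and Ncr1 at -0.66 ± 0.41 (adjusted p = 0.955). With females fitted alone the values were the same and the standard errors smaller. Gzma fell (-0.93 ± 0.13 log2, adjusted p = 0.00336), Ncr1 fell (-0.66 ± 0.11, adjusted p = 0.00748), Ccl5 fell (-0.29 ± 0.08, adjusted p = 0.0342) and Cd4 rose (0.27 ± 0.07, adjusted p = 0.0353) by edgeR's quasi-likelihood test. In that fit 6% of all genes were called lower and 5.01% higher. Gzma and Ncr1 were called in all 12 fits that left out a library, and Ccl5 and Cd4 in 4 of 12 each. Cd8b1 (0.27 ± 0.08, adjusted p = 0.0515) and Cd3e (0.26 ± 0.09, adjusted p = 0.0766) did not pass.

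**Figure D4:**
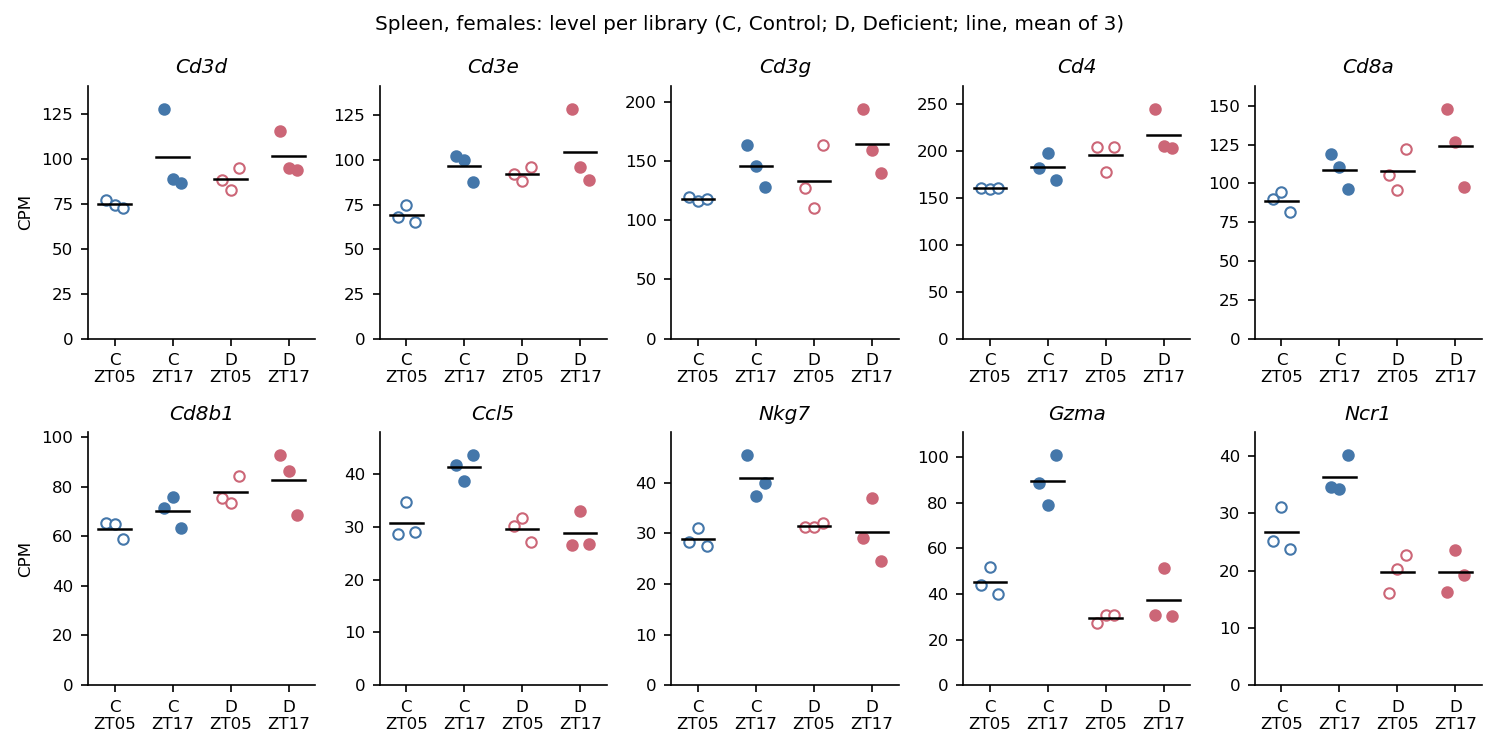
CPM of the 10 genes in the 12 female spleen libraries, by treatment and time (each point 1 library, lines are means of 3). Gzma and Ncr1 of Deficient mice lie below those of Control mice at each time, and Cd4 of Deficient mice lies above.

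Most other cytotoxic and NK cell genes of female spleen were not called, and those called went in both directions. The shares of all genes called with females fitted alone are given above. Of 21 cytotoxic and NK cell genes tested, 3 fell (the NK receptor genes Klre1 -1.06 and Klrb1c -0.55, and granzyme B, Gzmb, -0.72) and 2 rose (Il2rb 0.37, Txk 0.35). Of 17 receptor and signalling genes 2 rose (Cd6 0.44, the CD3 zeta chain Cd247 0.32), and of the naive and helper genes Il7r (0.88), Tcf7 (0.55) and Lef1 (0.48) rose. The median log2 change was 0.15 for the 10 genes and 0.00 for all genes tested. Erythroid markers fell for 10 of 10 tested (median -5.09) and proliferation markers for 10 of 10 (median -1.96). The erythroid sum was 1577 to 17441 CPM in Control and 179 to 744 CPM in Deficient female spleen, and its part in the spleen values was not tested.

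A ratio of genes within a library does not depend on how libraries are scaled. The log2 ratio of Ncr1 to Cd3e in female spleen was -1.40 ± 0.17 (SD, n = 6) in Control and -2.32 ± 0.37 (n = 6) in Deficient mice, with no overlap. The difference of -0.92 had an exact two-sided permutation p of 0.00216, the smallest that 6 against 6 libraries can give, and 0.0173 after Benjamini-Hochberg adjustment over the 8 ratio tests. In female lung the ratio was 0.67 ± 0.42 in Control and -0.28 ± 0.66 in Deficient mice, a difference of -0.95 (exact permutation p = 0.0173, adjusted 0.0693) that did not pass. The log2 ratio of Cd8a to Cd4 differed by -0.04 in female spleen (exact permutation p = 0.639) and by 0.24 in female lung (exact permutation p = 0.245). In males the 4 differences were -0.11 to -0.43 (adjusted exact permutation p 0.599 to 0.905). For Ncr1 to Cd3e in male spleen and Cd8a to Cd4 in male lung only 5 Deficient libraries were used. No log2 ratio exists where the upper gene is at 0 CPM, as Ncr1 was in spleen ZT17 replicate 2 and Cd8a in lung ZT05 replicate 1. These differences therefore leave out the lowest Deficient values.

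**Figure D5:**
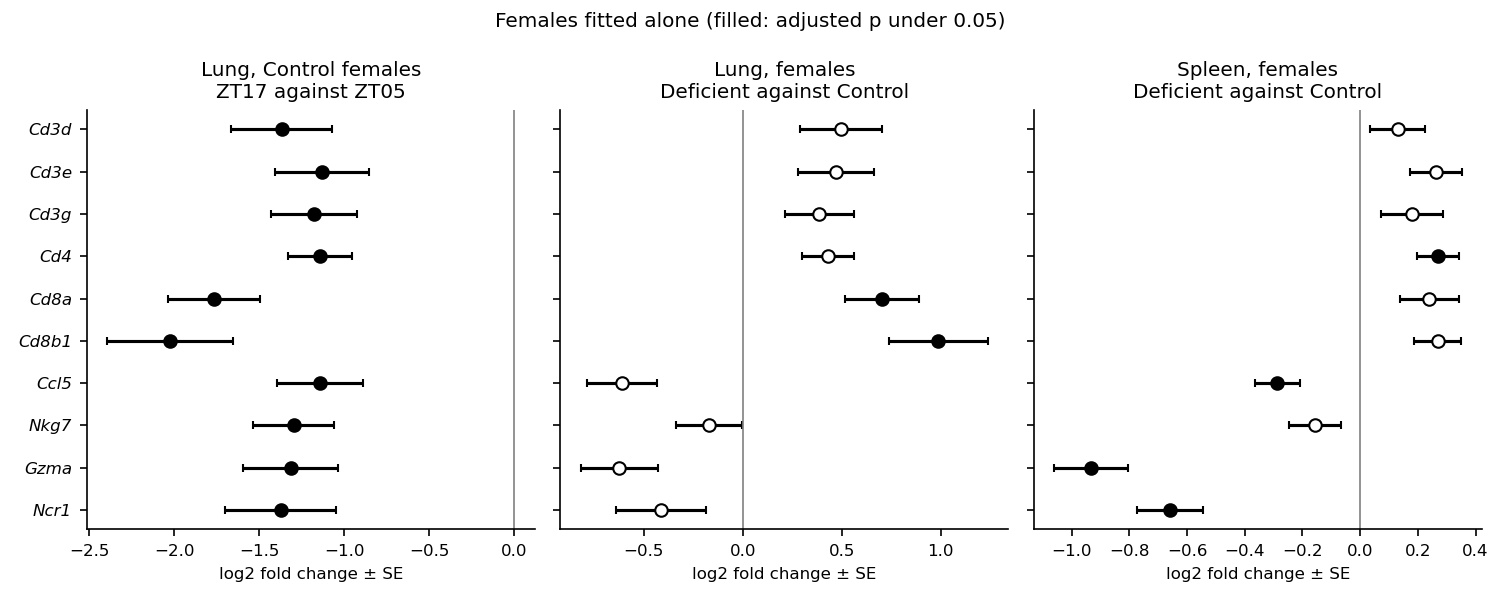
Log2 fold changes of the 10 genes with females fitted alone (x axes, dots with bars of 1 SE, filled where the adjusted p is under 0.05), for ZT17 against ZT05 in Control lung and for Deficient against Control in lung and in spleen. All 10 genes lie below 0 in the first panel, and in the others Cd3d, Cd3e, Cd3g, Cd4, Cd8a and Cd8b1 lie above 0 and Ccl5, Nkg7, Gzma and Ncr1 below it.

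The spleens of Control females, from the same set of mice, held higher values at ZT17, but 0 of the 10 genes passed the test. For 9 of the 10 genes the ZT17 spleen values lay above those of ZT05 without overlap (all but Cd8b1), against 11% of all spleen genes. The log2 value of Gzma was 0.98 ± 0.18 (adjusted p = 0.103 by edgeR's quasi-likelihood test), and those of the other 9 were 0.15 (Cd8b1) to 0.49 (Nkg7). With females fitted alone 0 of the 10 was called by edgeR (6 had an unadjusted p under 0.05), where 0.00582% of all spleen genes were called higher, and DESeq2 was not run on females alone. In Deficient female spleen 0 genes lay apart between the times. The difference between lung and spleen in this change was not tested.

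In male lung, where all 12 mice are of the low-numbered cohort, the genes were lower in Deficient mice in the shared fit. Cd3g read 108, 58.5 and 21.9 CPM at ZT05 and 8.09, 5.83 and 11.9 CPM at ZT17 in Control, and 3.2, 11 and 10.4 CPM and 9.69, 3.69 and 6.01 CPM in Deficient males. Ccl5 read 76.6, 49.7 and 11.1 CPM and 2.43, 2.84 and 3.30 CPM in Control, and 2.59, 1.62 and 6.34 CPM and 1.42, 1.16 and 1.32 CPM in Deficient males. The 3 Control ZT05 libraries, and most of all replicates 1 and 2, were high, and the Control ZT17 values overlapped those of Deficient males. By edgeR's quasi-likelihood test 8 of the 10 genes fell, against 3.25% of all lung genes called lower, with changes of -1.42 (Cd4) to -2.42 ± 0.40 (Ccl5). Cd8b1 (-2.75 ± 0.82, adjusted p = 0.055) and Gzma (-1.37 ± 0.43, adjusted p = 0.0663) did not pass, while DESeq2 called all 10 (adjusted p = 0.0125 for Cd8b1 and 0.0109 for Gzma, 4.89% of all genes lower). Ccl5, Cd3g and Ncr1 were called in all 24 fits that left out a lung library, the other 5 in 18 to 23, and all 5 lost their call without male Control ZT17 replicate 3 (adjusted p up to 0.108 over these fits). With males fitted alone Ccl5 was the 1 gene of 9 tested that fell (-2.44 ± 0.46, adjusted p = 0.0462 by the same test), where 0.235% of genes were called lower.

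Between the times, 8 of the 10 genes lay lower at ZT17 in Control male lung without overlap (all but Gzma and Ncr1), as did 12.9% of all genes. With males fitted alone 6 of 9 fell by edgeR's quasi-likelihood test (Ccl5 -4.01, Cd8a -3.96, Nkg7 -3.21, Cd3g -2.89, Cd4 -2.80, Cd3d -2.74), against 3.03% of all genes. In Deficient against Control male lung, other T cell receptor genes (11 of 17), B cell markers (11 of 12) and proliferation markers (8 of 10) also fell. So did 7 of 20 cytotoxic genes, among them the chemokine Xcl1 (-3.68), perforin Prf1 (-3.37), Ms4a4b (-2.09) and Klrd1 (-2.03). In that comparison 3.25% of all lung genes were called lower in the shared fit and 0.235% with males fitted alone. The B cell sum was 50.0 to 837 CPM in Control and 32.6 to 111 CPM in Deficient male lung, and the macrophage sum 1613 to 3665 and 1513 to 2555 CPM. Mitochondrial and ribosomal-RNA-like counts took 33.2% to 65.9% of these libraries, and the part of library composition in these values was not tested.

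The male and the female lung response differed by test for Cd8a (2.86 ± 0.65 log2, adjusted p = 0.0425), Cd3e (2.24 ± 0.52, adjusted p = 0.0464) and Cd3g (2.05 ± 0.47, adjusted p = 0.0425) by edgeR's quasi-likelihood test, female above male. These were 3 of 63 pairs over 13 tissues, against 0.723% of lung genes and 0.539% of genes over all tissues called higher. They were called in 4 to 6 of the 24 fits that left out a lung library, so most single libraries end the call. In lung, sex and library composition cannot be told apart.

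Male spleen gave 0 calls of 10 for the treatment by edgeR (5 had an unadjusted p under 0.05, and DESeq2 called 0), where 0.288% of all genes were called higher and 0.498% lower. Without the filter on low counts edgeR called Gzma, Cd3e and Ncr1 lower, as it did 2.35% of all genes. The low-numbered males held Gzma at 0 to 6.79 CPM and Cd3d at 93.0 to 364 CPM. The high-numbered Control male held 42.7 CPM of Gzma, 35.6 of Ncr1 and 78.4 of Cd3d, values inside or near those of Control females. Without that library, Control males held Gzma at 0.735 to 6.79 CPM and Ncr1 at 2.97 to 12.5 CPM. Deficient males held Gzma at 0 to 4.13 CPM and Ncr1 at 0 to 14.8 CPM, with overlap for both genes. With a cohort term and the filter, edgeR called 0 of the 10 genes.

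In male kidney, all of the high-numbered cohort, 3 of the 7 genes tested fell in Deficient mice. There 19.2% of all kidney genes were called lower, so a share of 3 in 7 is to be read against that level. Ccl5 read 1.93, 2.2, 4.64, 1.86, 4.58 and 1.47 CPM in Control and 0.50, 0.59, 0.38, 0.95, 4.47 and 1.02 CPM in Deficient males, and 1 Deficient library was as high as Control. Nkg7 read 0.77, 0.31, 2.36, 0.72, 2.05 and 0.94 CPM in Control and 0.14, 0.22, 0.56, 0.24, 0.34 and 0.71 CPM in Deficient males, with overlap. By edgeR's quasi-likelihood test the changes were -1.40 ± 0.36 for Ccl5 (adjusted p = 0.00415), -1.73 ± 0.47 for Nkg7 (adjusted p = 0.00616) and -0.99 for Cd3g (adjusted p = 0.0414). Ccl5 kept its call in all 24 fits that left out a library, Nkg7 in 23 (not without Control ZT05 replicate 3, adjusted p = 0.0515) and Cd3g in 15. The T cell receptor gene Trac (-2.42), Prf1 (-1.26) and Il2rb (-0.73) fell there too, as did 7 of 13 macrophage markers and 7 of 9 proliferation markers, whose part was not tested. In female kidney fitted alone Ccl5 fell by 0.78 on the log2 scale (adjusted p = 0.0365 by edgeR's quasi-likelihood test, 5.81% of genes lower).

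In uterus Gzma fell with no overlap between the arms, as 10.7% of uterine genes did in that direction. It read 4.19, 2.17, 5.50, 2.15, 2.06 and 3.05 CPM in Control and 0.62, 0.55, 1.70, 0.68, 1.62 and 1.08 CPM in Deficient females. The change was -1.58 ± 0.37 log2 (adjusted p = 0.0051 by edgeR's quasi-likelihood test), and Ccl5 fell by 0.89 (SE 0.33, adjusted p = 0.0459), 2 of 8 genes tested against 23.9% of all uterine genes called lower. The counts of called and of not overlapping genes are thus near those of all uterine genes. Gzma kept its call in all 12 fits without 1 library and Ccl5 in 2. Of the T cell genes of uterus the receptor chain Cd247 (1.44) and Skap1 (0.74) rose and the kinase Lck fell (-0.49), and the granule protease Gzmb (-1.45) and the cytokine receptor chain Il18rap (-1.29) fell. Uterine macrophage markers fell for 10 of 13 and neutrophil markers for 5 of 5 tested, and their part in the Gzma value was not tested.

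In ovary Gzma fell too. It read 1.08, 0.83, 0.46, 1.07, 0.91 and 1.72 CPM in Control and 0.33, 0.23, 0.30, 0, 0.36 and 0.21 CPM in Deficient females, without overlap, as 1.95% of ovarian genes did in that direction. The Deficient values are at most a few reads each, in libraries of 13093818 to 17689282 nuclear-gene reads, so the size of the change is uncertain. The change was -2.04 ± 0.48 log2 (adjusted p = 0.0302 by edgeR's quasi-likelihood test), 1 of 7 genes tested against 5.61% of all ovarian genes called lower, and it kept its call in 6 of 12 fits without 1 library. The oocyte marker Zp3 was 90.9 and 16.3 CPM in Control ZT05 replicates 2 and 3 and 31.4 CPM in Deficient ZT05 replicate 3, and 0.334 to 1.46 CPM in the other 9 ovary libraries. Gzma kept its call without each of those 3 libraries (adjusted p of 0.0401, 0.0475 and 0.0409 by the same test). These 3 calls in uterus and ovary were the only ones among 78 pairs of gene and tissue for the female response in the shared fit, against 5.28% of all genes over all tissues called lower and 4.67% higher. Over the male response 11 of 67 pairs were called, all lower and all in lung and kidney, against 2.93% of all genes.

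Of 82 pairs, 11 were called for the day-night change of Control mice, 10 in lung and 1 in heart, against 2.61% of all genes over all tissues called lower. In heart the change passed for Cd8a (-2.19 log2, adjusted p = 0.0225 by edgeR's quasi-likelihood test), 1 of 10 genes against 0.95% of heart genes called lower, and it kept the call in 18 of 24 fits without 1 library. Male hearts, all low-numbered, held Cd8a at 1.92 to 58.4 CPM in Control mice where female hearts held 0.40 to 1.93 CPM. The erythroid sum was 13105 to 218306 CPM in those male hearts and 1326 to 9376 CPM in the female ones, and its part in the Cd8a value was not tested. In females fitted alone Cd4 of liver also fell in Deficient mice, by 0.70 on the log2 scale (adjusted p = 0.0498 by edgeR's quasi-likelihood test, 7.2% of genes lower), and Gzma of Control kidney fell from ZT05 to ZT17 by 1.57 (4.67% of genes lower).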

How the data were processed

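The 10 genes, the gene lists and the comparisons were chosen with earlier results of these data known. Per the labels' protocols, RNA was extracted with TRIzol and 500 ng of total RNA went into poly(A) TruSeq Stranded mRNA libraries. The submitters' processing notes name FastQC 0.11.9, cutadapt 4.1, STAR 2.7.10a, DESeq2 1.34.0 and the builds GRCm38 and mm10, and the counting tool and annotation are not given in the sources used here. The deposited raw counts per gene of all 419 libraries were used, and the normalized table was not used.

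Library sizes left out 37 mitochondrially encoded genes and 2 genes treated as ribosomal-RNA-like (CT010467.1, Lars2), which is a grouping and not their gene class. The sizes were scaled by TMM within each tissue. Each tissue was fitted in edgeR 4.0.16 (R 4.3.3) with 1 coefficient per sex, treatment and time, after its default filter on low counts (minimum count 10, minimum total 15), with quasi-likelihood F tests and Benjamini-Hochberg adjustment over all genes tested in the tissue. A response is Deficient minus Control averaged over both times, and each SE is the fold change divided by the square root of F. Ratios were compared by exact permutation over libraries. All 10 genes were named in every tissue; of each further list at most 4 called genes with the largest change were named, and the values of some genes of those lists are not reported here. A pair of libraries of equal content was looked for in the 418 replicate pairs within groups and not found (lowest chi-square per degree of freedom 3.22). Libraries of different groups were not compared. Same-numbered replicates did not deviate together (mean residual correlation over tissues -0.02 to 0.08). On simulated lung counts for the female response, 71 of 100 genes changed 2-fold and 96 of 100 changed 4-fold were called. The simulated base level of a gene was the same in all libraries, without differences of sex, cohort or time. The changed genes left out those of lowest level, so these shares are not the power of the reported response. Alternatives were DESeq2 1.42.0, other scaling, no filter, a replicate block, a cohort term, each sex alone and libraries left out.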

Additional observations from a re-analysis of the deposited data

Results flagged for a closer look

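The pairs of gene and tissue called for the treatment response, in the shared fit or in females alone, gave 42 arms of 1 sex and treatment. In 4 of them 1 library stood far from the rest by Dixon's 95% criterion, which flags about 1 in 20 groups by chance. Ccl5 in Deficient male kidney was 4.47 CPM in ZT17 replicate 2, and the nearest other library had 1.02. Ccl5 in Deficient male lung was 6.34 CPM in ZT05 replicate 3 (nearest 2.59). Gzma in Deficient female spleen was 51.4 CPM in ZT17 replicate 2 (nearest 30.9). Ncr1 in Control male lung was 6.56 CPM in ZT05 replicate 1 (nearest 3.30). Among pairs not called, and chosen after its values were seen, Cd4 in Deficient female gastrocnemius was 5.79 CPM in ZT17 replicate 2, where the other 5 libraries had at most 0.35. That library also stood above the other 5 for Cd3d (2.03 CPM), Cd3e (1.73), Cd3g (2.23), Cd8a (1.32) and Cd8b1 (1.02). Of the cytotoxic genes, Nkg7 (0.508), Ccl5 (0.305) and, by little, Ncr1 (0.102, nearest 0.0898) were above the other 5 too. Gzma (0.102) was not, since Deficient ZT05 replicate 2 had 0.180. Mitochondrial and ribosomal-RNA-like genes took 44.2% of its counts, against 11.4% to 14.7% in the other 5.

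In lung the female response exceeded the male response by test for Cd8a (2.86 log2), Cd3e (2.24) and Cd3g (2.05). The response at ZT17 exceeded that at ZT05 by test for Cd8a (2.82), Cd3d (1.78), Nkg7 (1.69) and Cd4 (1.63).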

How the results depend on the processing

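Counts are of gene-and-tissue pairs called by edgeR unless another tool is named. The 3 female calls became 11 with females fitted alone. The 11 male calls became 18 without the low-count filter, 15 with DESeq2, 12 with a cohort term in tissues with males of both cohorts (Ccl5 of quadriceps added, adjusted p = 0.0472), 3 with males fitted alone and 3 in the tissues whose males are all high-numbered. The 3 sex differences became 8 without the filter, 7 with DESeq2 and 0 with a replicate block. The 4 time differences became 9 without the filter, 8 with DESeq2, 2 with a replicate block, and 0 in each sex fitted alone. The 11 Control day-night calls became 18 without the filter and 6 in males alone, and the 0 Deficient ones became 1 in females alone. With the replicate block the female response had 2 higher and 1 lower call, and the male response 12 calls. Same-numbered samples are linked in the titles only by replicate number, though some carry neighbouring animal numbers. The block was not used further. Other scalings left all 32 called values called in the same direction. The Ncr1 to Cd3e difference of male lung was -0.11, and 0.28 with a pseudocount of 1 CPM. The causes of these changes were not tested.

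Leaving out a replicate number of every group gave 0 to 2 female, 4 to 7 male, 0 to 1 sex-difference, 0 time-difference, 6 to 9 Control day-night and 0 Deficient day-night calls, from fewer samples. Leaving out each library of spleen, lung, uterus, kidney, ovary and heart gave 2 to 5, 6 to 13, 0 to 8, 1 to 7, 10 to 15 and 0. Single libraries of the other tissues were not left out. In females alone it gave 2 to 10 calls for the day-night change of Control lung, 2 to 5 for the spleen response and 0 to 3 for the lung response. For Cd8a to Cd4 the differences ranged from -0.071 to 0.0056 in female spleen, -0.49 to -0.13 in male spleen, 0.12 to 0.33 in female lung and -0.69 to -0.21 in male lung. For Ncr1 to Cd3e they ranged from -0.98 to -0.79, -0.37 to 0.14, -1.15 to -0.76 and -0.81 to 0.34 in the same order. In low-numbered males nuclear counts fell as low as 332749 per library, which limits these genes there.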
